A study of Mus musculus with 6 samples.

Results

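Compact myelin is the stack of tightly apposed membrane that a Schwann cell, the glial cell of peripheral nerve, winds around an axon. The genes described here encode myelin proteins, most of them of that membrane stack, together with Cnp, whose product is a myelin enzyme. They were taken as the rows of the deposited count table whose gene identifiers carry the symbols Mbp, Pmp22, Pmp2, Mal, Pllp, Ncmap and Cnp, which gave 7 genes of 54838 rows. Picking rows by symbol used no measured value, but the genes, and the gene lists below, were chosen with earlier results of these data known. All 7 passed the filter on low counts.

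RNA was sequenced from sciatic nerves of C57 Bl mice at postnatal day 3, when Schwann cells have begun to myelinate. The 3 CKO libraries carry the genotype CnpCre Actl6afl/fl, in which a Cre recombinase named for the Cnp gene meets loxP-flanked alleles of Actl6a. Actl6a encodes an actin-related subunit of the BAF chromatin remodelling complex. The other 3 libraries are labelled WT, and the labels do not say whether these mice carried Cre or the floxed alleles. Because Cnp is active in myelinating glia, recombination is aimed at Schwann cells in a nerve that also holds other cells. In whole nerve, fewer Schwann cells and less RNA per Schwann cell cannot be told apart. The labels do not say how many animals gave each library, so a p-value here reflects only how far the 6 libraries scatter, which may in part be technical.

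Compact myelin holds its layers together with a small set of abundant proteins. Myelin basic protein (Mbp) binds the cytoplasmic faces of the membrane to each other. PMP22 is a membrane protein whose gene dosage matters: duplication or deletion of the human gene causes inherited neuropathy. Pmp2 (also called P2 or FABP8) is a fatty acid binding protein of peripheral myelin. Mal and plasmolipin (Pllp) are membrane proteins of the MARVEL family linked to lipid raft sorting. Ncmap (noncompact myelin associated protein) is a membrane protein of peripheral myelin. Cnp hydrolyses cyclic nucleotides and lies in the cytoplasmic channels of myelin rather than in the compacted layers. Several of these genes are known targets of the transcription factors Egr2 and Sox10 in Schwann cells.

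Totals ran from 31404107 to 32674317 counts in CKO libraries and from 33084003 to 36760296 in WT libraries. CKO replicate 2 stood apart: 14 skeletal muscle markers took 7.06% of its counts, against 0.423 to 0.665% in each of the other 5 libraries. CKO replicate 1 held the most erythroid RNA, with 2.29% of counts on 7 markers, while replicates 2 and 3 held 0.779 and 0.722% and WT libraries 0.271 to 0.396%. By edgeR's test across all genes, which called 8.55% of genes higher in CKO, 4 of 7 erythroid, 6 of 7 macrophage and 3 of 8 fibroblast markers were called higher. Without CKO replicate 2, where 17.8% of genes were called higher, edgeR called 0 of 7 erythroid markers (6 at an unadjusted p below 0.05), 7 of 7 macrophage and 5 of 8 fibroblast markers higher. Macrophage markers took 0.0736 to 0.119% of counts in CKO and 0.0492 to 0.0568% in WT libraries. The part of these other cells in the results below was not tested. Actl6a itself read 42.4, 47.6 and 41.5 CPM (counts scaled to library size with TMM factors) in CKO libraries and 48.6, 53.3 and 46.2 CPM in WT libraries. The groups overlapped and no difference was called (log2 fold change -0.17, edgeR adjusted p = 0.243), although it was called without CKO replicate 2 (-0.24, edgeR adjusted p = 0.0487). The count covers all exons of the gene, so it checks the genotype only weakly. Markers of the labelled tissue were present: all 11 Schwann cell lineage markers were tested, and together they took 0.133 to 0.193% of counts in CKO and 0.261 to 0.266% in WT libraries. Of 7 oligodendrocyte markers 1 (Mobp) passed the low-count filter and the 7 together took 8.88e-05 to 0.000194% of counts in CKO and 0.000193 to 0.000302% in WT libraries. Mobp was called lower in CKO (log2 fold change -2.80, edgeR adjusted p = 0.0103). It had few counts: 13, 3 and 8 in CKO libraries, against 49, 42 and 93 in WT libraries.

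Promoter sequences of RefSeq (GRCm38.p6) were available for 5 of the 7 genes, Mal, Ncmap, Pllp, Pmp22 and Cnp, in 9 windows. Windows of 4 genes are shown because these genes all fell and each of these windows holds letters of a motif of a factor that acts in Schwann cells. The other windows, among them the only one of Pllp, which fell too, hold no match and are not shown. Each is the 250 bases before an annotated start, 5′ to 3′ on the gene's strand. Capitals mark motif matches on either strand, namely GGAATG (TEAD factors, read as CATTCC on the other strand), GTGGGNG (EGR factors, other strand CNCCCAC) and ACAANG (SOX factors, other strand CNTTGT). No match overlapped another.
Mal promoter, chr2:127656696-127656945, - strand: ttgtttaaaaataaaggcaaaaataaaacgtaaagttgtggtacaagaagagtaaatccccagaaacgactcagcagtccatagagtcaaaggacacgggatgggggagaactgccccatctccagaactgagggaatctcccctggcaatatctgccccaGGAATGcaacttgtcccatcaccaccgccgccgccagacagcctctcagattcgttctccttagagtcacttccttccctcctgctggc
Ncmap promoter, chr4:135398228-135398477, - strand: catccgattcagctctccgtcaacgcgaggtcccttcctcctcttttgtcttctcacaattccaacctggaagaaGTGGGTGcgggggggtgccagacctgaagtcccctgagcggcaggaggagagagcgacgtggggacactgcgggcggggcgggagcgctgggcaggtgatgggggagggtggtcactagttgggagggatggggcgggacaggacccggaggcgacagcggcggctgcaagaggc
Pmp22 promoter, chr11:63128732-63128981, + strand: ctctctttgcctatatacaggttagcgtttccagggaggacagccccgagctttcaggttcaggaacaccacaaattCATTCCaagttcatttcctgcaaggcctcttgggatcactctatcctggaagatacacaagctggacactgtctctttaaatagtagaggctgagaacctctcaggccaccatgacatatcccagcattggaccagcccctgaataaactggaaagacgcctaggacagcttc
Cnp promoter, chr11:100574689-100574938, + strand: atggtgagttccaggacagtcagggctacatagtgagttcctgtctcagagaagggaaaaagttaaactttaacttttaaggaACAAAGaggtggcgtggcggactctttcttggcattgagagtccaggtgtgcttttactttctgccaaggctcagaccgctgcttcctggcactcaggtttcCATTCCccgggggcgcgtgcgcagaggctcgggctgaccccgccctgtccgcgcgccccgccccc

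The TEAD letters occurred in 3 of the 9 windows, 1 each of Mal, Pmp22 and Cnp, and in 12.6% of all 32851 windows in the table. In Mal they lay 89 to 84 bases before the start, in Pmp22 173 to 168 bases and in Cnp 65 to 60 bases. EGR letters were found once, 175 to 169 bases before the first Ncmap start, and are in 28.1% of all windows. SOX letters were also found once, 167 to 162 bases before the Cnp start, and are in 36.3% of all windows. TATAAA, the letters of a TATA box, was in 0 of the 9 windows and in 12.4% of all windows in the table. The windows differed in base composition: the first Pmp22 window was 48.8% G and C with 3 CpG, and the fourth was 73.6% with 27 CpG, against medians of 52.4% and 6 over all windows. These matches describe the letters of short windows and say nothing about binding.

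Transcripts of 6 of the 7 genes were lower in CKO nerves, each by more than 3-fold, and Pmp2 was the exception. Together the 7 genes took 0.931, 0.372 and 0.849% of all counts in CKO libraries, against 3.64, 3.8 and 3.87% in WT libraries. The 6 were called by edgeR's quasi-likelihood test with Benjamini-Hochberg adjustment over all 18775 genes tested, at an adjusted p below 0.05. Over all genes tested, 10.3% were called lower, 8.55% higher and 18.8% either way, and the median log2 fold change was 0.04. In the same 6 genes the CPM values of the groups did not overlap, a pattern that 21.7% of tested genes showed in the lower direction and 21.0% in the higher. All 6 were called in each of the 11 alternative fits, including every fit that left out a library.

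**Figure D1:**
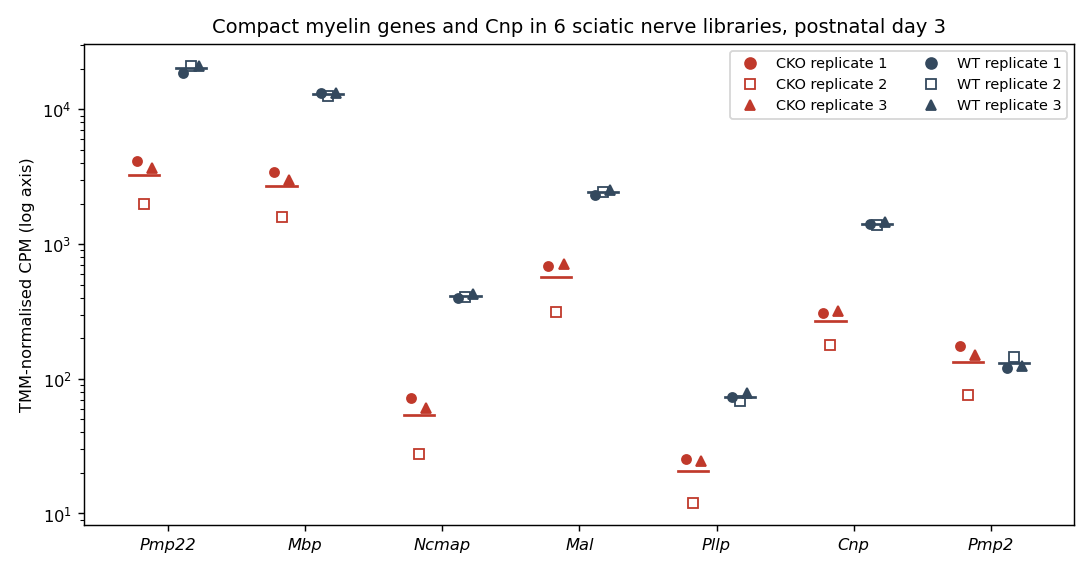
TMM-normalised CPM (log axis) of the 7 genes in each library, CKO left of WT, with 1 symbol per replicate and a line at the arithmetic mean of 3. In 6 genes every CKO library lies below every WT library, in Pmp2 the groups overlap, and CKO replicate 2 (open square) is the lowest CKO library in all 7.

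Pmp22 had the highest level per length of the 7. It had 4162, 1997 and 3682 CPM in CKO libraries, against 18619, 21041 and 21057 CPM in WT libraries. The highest CKO library was thus far below the lowest WT library. The mean was 3280 ± 1137 CPM in CKO and 20239 ± 1403 CPM in WT nerves (SD, n = 3 each), which is 6.17-fold lower (-2.62 ± 0.28 SE on the log2 scale, edgeR adjusted p = 0.00199). Pmp22 alone took 0.177 to 0.436% of all counts in CKO libraries and 1.87 to 2.11% in WT libraries. The gene (ENSMUSG00000018217) spans bases 63128982 to 63159547 of chromosome 11 (GRCm38, as in the deposited table), and 0 of its 2354 exonic bases are shared with another gene.

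Mbp read 3458, 1593 and 2984 CPM in CKO libraries and 13253, 12538 and 13228 CPM in WT libraries. CKO libraries spread by 36.2% (coefficient of variation), with replicate 2 the lowest, whereas WT libraries lay close together (3.12%). Its log2 fold change was -2.28 ± 0.28 (SE, 4.86-fold lower, edgeR adjusted p = 0.00333). The gene (ENSMUSG00000041607, chromosome 18, 82475146 to 82585637) also produces the longer Golli transcripts, known from neurons and immune cells. The count per gene does not separate them from the myelin transcripts.

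Ncmap had the largest fold change, with 72.5, 27.8 and 60.5 CPM in CKO libraries and 397.0, 405.2 and 423.2 CPM in WT libraries. The log2 fold change was -2.93 ± 0.36 (SE), or 7.62-fold lower (edgeR adjusted p = 0.00425). Every CKO library was far below every WT library. Ncmap (ENSMUSG00000043924) lies on chromosome 4, 135369576 to 135398227.

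Both MARVEL genes fell, with smaller estimates than the other 4 genes that fell but with 95% intervals that overlap theirs. Mal had 687.8, 311.9 and 709.6 CPM in CKO libraries, against 2317, 2430 and 2511 CPM in WT libraries (log2 fold change -2.09 ± 0.31 SE, edgeR adjusted p = 0.00721). Pllp had 25.5, 11.95 and 24.7 CPM in CKO libraries, against 73.6, 68.9 and 78.8 CPM in WT libraries (-1.83 ± 0.29 SE, edgeR adjusted p = 0.0094). Its smallest count was 333 fragments, in CKO replicate 2. Mal is on chromosome 2 (ENSMUSG00000027375, 127633226 to 127656695) and Pllp on chromosome 8 (ENSMUSG00000031775, 94674894 to 94696278). An antisense gene, Gm45767, covers 54.2% of the exonic bases of Pllp. Counting did not use strand, so reads of the pair cannot be told apart there, and by the program's default a fragment that fits both equally goes to neither, which understates the level of Pllp. Gm45767 was lower in CKO libraries as well (4.74, 2.84 and 4.43 CPM, against 11.3, 8.96 and 10.8 CPM in WT libraries, log2 fold change -1.37, edgeR adjusted p = 0.00781).

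Cnp, the gene named in the Cre driver, had 307.7, 177.0 and 318.3 CPM in CKO libraries and 1401, 1384 and 1459 CPM in WT libraries. Of the 7 genes it had the smallest relative spread between CKO libraries (29.4%) and between WT libraries (2.76%). The log2 fold change was -2.40 ± 0.23 (SE), or 5.28-fold lower (edgeR adjusted p = 0.00146). A widely used Cnp-Cre line carries Cre inserted in the Cnp gene itself. The labels do not say which line was used or how many driver copies the mice had, so transcript missing from a driver allele and lower transcription of an intact one cannot be told apart in this count. The fold change of Cnp lay inside the range of the other 5 genes that fell. Cnp (ENSMUSG00000006782) is on chromosome 11, 100574904 to 100591729, and shares 4.23% of its exonic bases with Dnajc7 on the opposite strand, which was not called (log2 fold change -0.15, edgeR adjusted p = 0.514).

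Pmp2 did not follow the other 6. It had 176.0, 75.3 and 151.1 CPM in CKO libraries, against 120.4, 144.8 and 125.1 CPM in WT libraries. CKO replicates 1 and 3 were above every WT library and CKO replicate 2 was below every one. The means were 134.2 ± 52.5 CPM in CKO and 130.1 ± 13.0 CPM in WT nerves (SD, n = 3 each), and no difference was called (log2 fold change 0.04, 95% interval -0.70 to 0.78, edgeR adjusted p = 0.932). The interval spans changes in either direction, but its lower bound lay above the highest upper bound of the 6 genes that fell, which was -1.13 (Pllp). Without CKO replicate 2, Pmp2 was called higher in CKO nerves (0.33, edgeR adjusted p = 0.0179), in a fit where 17.8% of 19256 genes were called higher. In that fit the other 6 genes were still called lower, at log2 fold changes of -1.56 (Pllp) to -2.62 (Ncmap), as were 17.6% of genes.

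**Figure D2:**
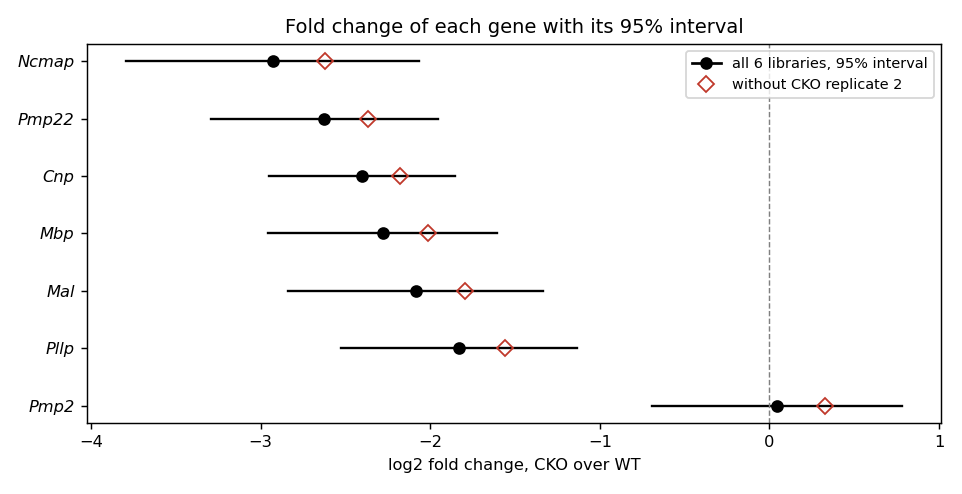
Log2 fold change of CKO over WT for each gene (x axis) with its 95% interval, and the value without CKO replicate 2 as an open diamond. The intervals of 6 genes lie below 0, that of Pmp2 spans 0, and leaving out CKO replicate 2 moves every gene towards higher values.

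How Pmp2 was counted limits its level. The gene (ENSMUSG00000052468, chromosome 3, 10179851 to 10183929) has 4 exons in the table, and 86.9% of its 1408 exonic bases, all of exons 2 and 3 and all but 1 base of exon 4, also belong to Gm37389, an annotated gene on the same strand. The recorded command did not ask for assignment to several genes, and by default the counting program gives a fragment that fits both genes equally to neither. The 184 bases that Pmp2 does not share are exon 1 (10183747 to 10183929) and that 1 base. Gm37389 had 0 counts in every library. The Pmp2 values therefore rest on fragments that reach exon 1, and they understate its level relative to other genes, while CKO and WT libraries were counted the same way. Exons 2 to 4 were not analysed here on their own.

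Ratios within a library take out what changes all 7 genes alike. CKO replicate 2 had 42.0 to 56.6% of the mean level (geometric) of the other CKO libraries in each of the 7 genes, Pmp2 included (46.2%). Of the 11 lineage markers 8 were lower there too, among them Gfra3 at 41.5%, Sox10 at 52.9% and Foxd3 at 68.0%, whereas Art3 (100%), Cryab (121%) and Ncam1 (177%) were not. The log2 ratio of Pmp2 to Ncmap was 1.28, 1.44 and 1.32 in CKO libraries, against -1.72, -1.48 and -1.76 in WT libraries. Mbp to Pmp2 gave 4.30, 4.402 and 4.30 in CKO libraries and 6.78, 6.44 and 6.72 in WT libraries. In all 6 ratios that involve Pmp2 the groups were separate, and the group means differed by 1.87 (against Pllp) to 3.00 (against Ncmap) on the log2 scale. CKO replicate 2, the lowest library for Pmp2 in CPM, lay with the other CKO libraries in these ratios.

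**Figure D3:**
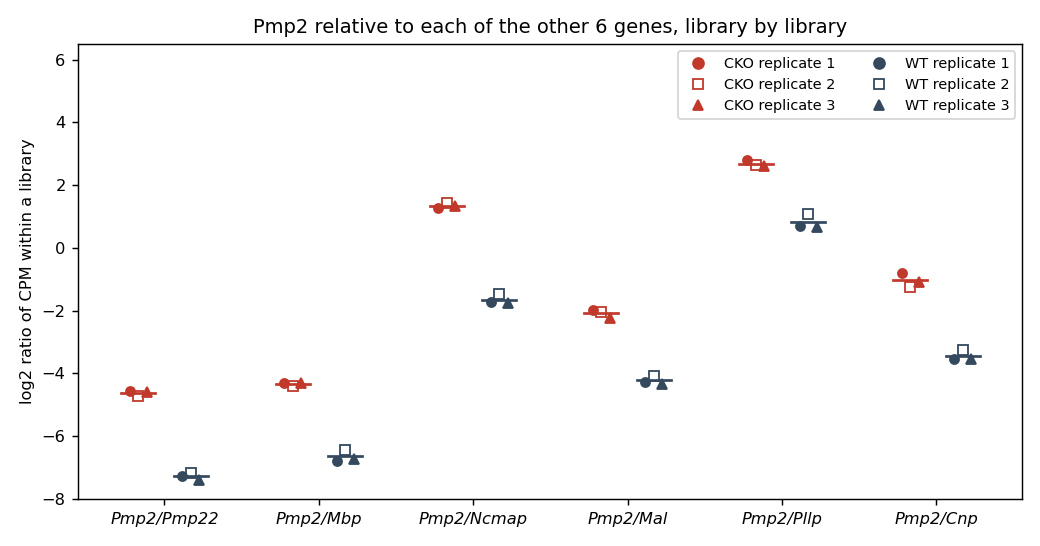
Log2 ratio of the CPM of Pmp2 to that of each of the other 6 genes within each library (y axis), CKO left of WT, 1 symbol per replicate, lines at means. The 3 CKO libraries sit together and above the 3 WT libraries in each ratio.

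Ratios among the 6 genes that fell also differed between the groups. Of their 15 pairwise log2 ratios, 13 separated CKO from WT libraries, by a mean difference of 0.18 (Mbp to Mal) to 1.13 (Pllp to Ncmap). Mbp to Cnp and Pmp22 to Cnp overlapped. Mal to Cnp barely separated (0.817 in CKO replicate 2, 0.812 in WT replicate 2), as did Mbp to Mal (2.353 in CKO replicate 2, 2.367 in WT replicate 2). The 15 ratios share 6 genes and are not independent. How often ratios of other gene pairs separate the groups was not computed, for these ratios or for those with Pmp2. The ratio of Mal to Ncmap was 3.25, 3.49 and 3.55 in CKO libraries, against 2.54, 2.58 and 2.57 in WT libraries. Pmp22 to Mal was 2.60, 2.68 and 2.38 in CKO libraries, against 3.01, 3.11 and 3.07 in WT libraries. These ratios are given as a description, since exact permutation of 3 against 3 libraries cannot go below p = 0.1.

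Levels of different genes can be set side by side only per length, and TPM, computed here from the deposited counts and exonic lengths, does so. Pmp22 had 5022, 2059 and 4808 TPM in CKO libraries, against 24785, 26617 and 26537 TPM in WT libraries. In WT libraries it was the gene with the second highest TPM of the whole table, and in CKO libraries its place ran from 11 to 51. Mbp averaged 906.7 ± 388.7 TPM in CKO and 4685 ± 249.98 TPM in WT nerves (SD, n = 3 each, as for the following genes). Mal averaged 586.9 ± 275.4 TPM in CKO and 2633 ± 42.1 TPM in WT nerves, and Cnp 209.0 ± 80.1 TPM in CKO and 1176 ± 38.6 TPM in WT nerves. Ncmap averaged 68.7 ± 33.6 TPM in CKO and 554.7 ± 11.5 TPM in WT nerves, and Pllp 28.4 ± 12.5 TPM in CKO and 107.1 ± 7.49 TPM in WT nerves. The order from Pmp22 through Mbp, Mal and Cnp to Ncmap was the same in each of the 6 libraries. Pmp2, at 271.6 ± 123.4 TPM in CKO and 279.3 ± 23.5 TPM in WT nerves, is understated on this scale, as is Pllp, and both were left out of the order. The exonic length of Mbp, 8403 bases, merges all its transcripts, which lowers its TPM if the short myelin forms dominate.

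As shares of the summed TPM of the 7 genes, Pmp22 made up 65.9, 66.8 and 64.9% in CKO libraries, against 71.9, 74.5 and 73.7% in WT libraries. Mal made up 9.23, 8.84 and 10.6% in CKO libraries and 7.58, 7.29 and 7.45% in WT libraries. The share of Pmp2 was 4.66, 4.21 and 4.46% in CKO libraries, against 0.777, 0.857 and 0.732% in WT libraries, both understated as above. Cnp had 3.15, 3.83 and 3.63% in CKO libraries and 3.50, 3.17 and 3.30% in WT libraries, with overlap of the groups.

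Set against markers of the Schwann lineage, the 6 genes also had lower values in every CKO library than in any WT library. The mean log2 CPM of the 11 lineage markers was 6.44 in CKO and 7.06 in WT libraries, a difference of -0.62. On this scale, as log2 ratios to that mean, Ncmap differed by -2.42 between CKO and WT, Pmp22 by -2.07, Cnp by -1.83, Mbp by -1.73, Mal by -1.56 and Pllp by -1.29. The groups were separate in each (exact permutation test, 2-sided, p = 0.1, adjusted over the 7 genes 0.1, the smallest that 3 against 3 libraries allow). Relative to the same markers Pmp2 stood at 0.95, 0.12 and 0.56 in CKO libraries, against -0.15, 0.11 and -0.07 in WT libraries. The mean difference was 0.58 (exact permutation test, 2-sided, p = 0.1), with CKO replicate 2 barely above the highest WT library. The difference was 0.38 without CKO replicate 1 and 0.79 without CKO replicate 2. In CKO replicate 2, Art3 (100%), Cryab (121%) and Ncam1 (177%) were not below the other CKO libraries, whereas the remaining lineage markers were. These genes thus raise the marker mean in that library and lower every ratio to it. Whether their level there comes from its muscle RNA was not tested. Against Sox10 alone the difference of Pmp2 was 0.96 and those of the other 6 genes ran from -2.04 to -0.91. Sox10 itself was called lower in CKO (log2 fold change -0.941, edgeR adjusted p = 0.044). The log2 fold change of Pmp2 itself was 0.045 and not called. Its 0.96 thus comes mostly from lower Sox10, and its 0.58 mostly from the lower marker mean (-0.62). The lineage markers did not move as one: 5 fell, Gfra3 rose and 5 were not called. S100b fell the most of them (log2 fold change -2.41, edgeR adjusted p = 0.00058). Its estimate lay near that of Cnp (-2.40) and below those of Mbp (-2.28), Mal (-2.09) and Pllp (-1.83).

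Related gene lists were read for how many of their members passed the same test, beside the background of 10.3% lower and 8.55% higher. Of 16 other myelin and myelin-contact genes 15 fell (median -2.18 on the log2 scale). The gene not called was Cadm4 (-0.24, edgeR adjusted p = 0.599). Drp2, of the periaxin complex, had 72.5 ± 15.6 CPM in CKO and 341.1 ± 26.1 CPM in WT nerves (SD, n = 3 each, edgeR adjusted p = 0.000679). Dusp15, a phosphatase, had a log2 fold change of -2.12.

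Among 25 transcriptional regulators of myelin genes, 9 fell, 2 rose and 14 were not called (median -0.35). The 3 with the smallest p were Tead1, a partner of YAP and TAZ (-0.86, edgeR adjusted p = 0.00563), Egr2 (-1.76, edgeR adjusted p = 0.00608) and Srebf2, an activator of sterol synthesis (-0.58, edgeR adjusted p = 0.00961). Egr2 had 53.4, 26.3 and 43.8 CPM in CKO libraries, against 136.9, 137.6 and 143.3 CPM in WT libraries, and like the 7 genes it was lowest in CKO replicate 2. Tead1 was not: it had 237.8, 293.3 and 235.2 CPM in CKO libraries, against 507.4, 449.3 and 436.5 CPM in WT libraries.

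Mbp messenger RNA is spliced, stabilised and carried to the membrane by RNA-binding proteins and motors, and 3 of 7 such genes fell while 4 were not called (median -0.30, 5 lower without CKO replicate 2). Qk, the quaking RNA-binding protein that myelin formation requires, had 712.8 ± 153.8 CPM in CKO and 1645 ± 62.4 CPM in WT nerves (SD, n = 3 each, log2 fold change -1.21, edgeR adjusted p = 0.00483). Fyn, a kinase that acts on local Mbp translation in oligodendrocytes, had -0.91, and Hnrnpa1 had -0.49, both called.

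Family relatives of the 7 genes moved in both directions or were not called. Of 5 tested PMP22/EMP relatives, Emp2 fell to 39.7, 56.2 and 44.5 CPM in CKO libraries, against 231.6, 231.2 and 237.9 CPM in WT libraries (log2 fold change -2.32, edgeR adjusted p = 0.000354). Emp1 rose (0.56, edgeR adjusted p = 0.0244) and the other 3 were not called, Tmem47 among them (-0.47, edgeR adjusted p = 0.0951), which was called without CKO replicate 2 (-0.68, edgeR adjusted p = 4.23e-05). Among 12 MARVEL relatives of Mal and Pllp, 3 fell and 2 rose (5 higher without CKO replicate 2). Marveld3, a tight junction protein, was at 0.489 ± 0.210 CPM in CKO and 4.44 ± 0.456 CPM in WT nerves (SD, n = 3 each, log2 fold change -3.17, edgeR adjusted p = 0.00148). Cmtm4 fell (-0.56) and Mal2 rose (1.73, at 1.303 ± 0.384 CPM in CKO and 0.392 ± 0.0365 CPM in WT nerves). Of 7 tested relatives of Pmp2, 2 rose and 5 were not called. Those that rose were Fabp4, the adipocyte and endothelial fatty acid binding protein, whose call was lost without CKO replicate 2 (0.98, edgeR adjusted p = 0.105), and Crabp2 (0.75, edgeR adjusted p = 0.0329), a retinoic acid carrier. Fabp7, a marker of Schwann cell precursors and radial glia, had 0.98 (edgeR adjusted p = 0.083), and it was called without CKO replicate 2 (1.03, edgeR adjusted p = 0.0265). Adipocyte markers (6 genes, Fabp4 not among them) took 0.00132 to 0.00313% of counts in CKO and 0.00244 to 0.0125% in WT libraries.

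**Figure D4:**
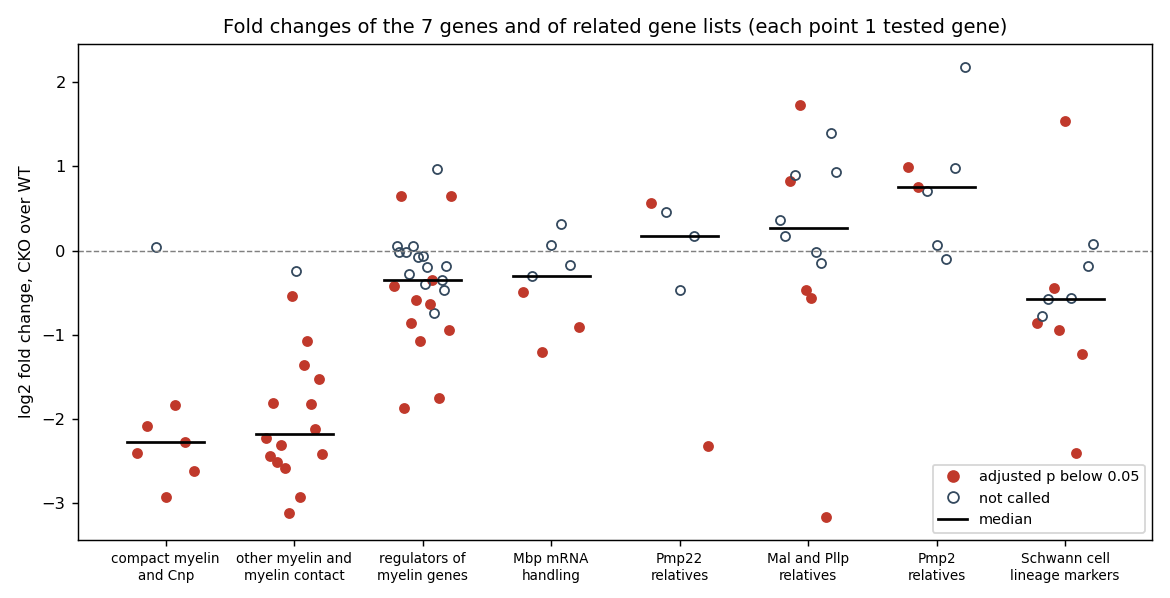
Log2 fold change of CKO over WT (y axis) for each tested gene of the 7 and of 7 related lists, filled where the adjusted p is below 0.05, with a line at each median. The medians are -2.28 for the 7 genes, -2.18 for other myelin genes and -0.57 for lineage markers, and relatives of the 7 genes lie on both sides of 0.

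The 7 genes lie on 6 chromosomes. Of their 14 nearest tested neighbours 2 were higher, 4 were lower and 8 were not called, beside 8.55% higher and 10.3% lower over all genes. Ttc25, 2335 bases before Cnp, was not called (0.06 on the log2 scale, edgeR adjusted p = 0.919). Nor were Zfp236, Cdrt4os1, B130011K05Rik, Mrps5, Mall, Srrm1 and Dnajc7. Lower were Arl2bp, 468 bases from Pllp (-0.38, edgeR adjusted p = 0.0318), Rcan3 beside Ncmap (-0.51, edgeR adjusted p = 0.0357), Gm9833 beside Pmp2 (-0.63, edgeR adjusted p = 0.0201) and Ccl22 beside Pllp, with 7, 3 and 7 counts in CKO libraries, against 22, 12 and 22 in WT libraries. Fabp4, 20158 bases after Pmp2, had 471.5, 435.1 and 365.7 CPM in CKO libraries, against 161.8, 187.8 and 288.5 CPM in WT libraries (0.995, edgeR adjusted p = 0.0274), with the call lost without CKO replicate 2 as given above. Galr1, 68368 bases before Mbp, had 25, 21 and 50 counts in CKO libraries, against 0, 1 and 0 counts in WT libraries.

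Across the 6 libraries, the genes whose profiles lay nearest to those of the 7 were searched among 11465 other genes. These had a log2 CPM that averaged 3 or more, and the 7 themselves were left out of the search. Nearness was the root mean square difference of log2 CPM, each gene centred on its own mean. Ugt8a, which makes galactosylceramide, was nearest to Pmp22 (0.0333), followed by Rasgef1a (0.107). Secisbp2l was nearest to Mbp (0.0542), ahead of the periaxin gene Prx (0.0815) and Shc4 (0.0856). For Cnp they were Cldn19 (0.0618), Nkain2 (0.0621) and the tetraspanin gene Cd9 (0.0701), which was also among the nearest 3 of Pmp22 (0.108). Sox2ot was nearest to Pllp (0.0727), followed by D430040D24Rik (0.0888) and the myelin-associated glycoprotein gene Mag (0.0916). Near Ncmap were Fam107a (0.0971), Slc6a15 (0.115) and Sncg (0.126). Mal had the least close neighbours in this search, Rimklb (0.144), the sterol enzyme gene Msmo1 (0.145) and Emid1 (0.158). Of the 7 left out, Mbp lay nearer to Mal (0.134) than Rimklb, and Pllp (0.151) nearer than Emid1. Nearest to Pmp2 were Cadm2 (0.0641), Foxd2os (0.0893) and Efnb3 (0.0904).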

How the data were processed

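RNA of sciatic nerves at postnatal day 3 was compared between 3 CKO and 3 WT libraries, grouped by sample title. The authors deposited fragment counts per gene with no normalization. Per the file headers, featureCounts 1.6.1 counted exons of Ensembl GRCm38 release 95, with both ends aligned, a mapping quality of at least 20 and strand ignored. The submitters' processing notes name Subread 2.0 and DESeq2 1.3. For alignment, settings were not given in the sources used here. Exonic lengths come from the deposited table, and symbols from a GRCm38 gene table (54723 of 54838 identifiers matched).

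Testing used edgeR 4.0.16 in R 4.3.3, with filterByExpr (minimum count 10), TMM factors, robust dispersions and the 2-sided quasi-likelihood F test on 18775 genes. The test was also run on simulated counts, which held no outlying library like CKO replicate 2, so that run does not cover such a case. CPM and TPM were computed here. Alternatives were other scalings, no filter, DESeq2 1.42.0, a replicate block and leaving out each library. Chi-square per degree of freedom between libraries of a group was 31.8 to 346 in CKO and 8.98 to 16.3 in WT, so no library was a duplicate. The genes and lists were chosen with earlier results of these data known. Genes are named by a rule: the 7, Actl6a, up to 3 tested genes per pathway list with the smallest p, the nearest tested neighbours, and the 3 nearest profiles per gene. Some genes that the rule names are not reported here. Cadm4, Gfra3, Art3, Cryab, Foxd3, Ncam1, S100b and Mobp were named after their values were seen.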

Additional observations from a re-analysis of the deposited data

How the results depend on the processing

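The 6 genes that fell kept their direction and their call in all 11 alternatives (other size factors, library size alone, no low-count filter, DESeq2, the replicate block and the 6 fits without 1 library). Their highest adjusted p was 0.0458, for Pllp without WT replicate 3. Pmp2 was close to 0: with the replicate block it was -0.033, and without 1 library it ran from -0.20 (without CKO replicate 1) to 0.33 (without CKO replicate 2), the only alternative in which it was called. The cause was not tested. Genes called numbered 1605 higher and 1929 lower. The replicate block gave 744 and 1108, and library size alone gave 1161 lower. Without 1 library the counts ran from 449 to 3425 higher and from 790 to 3398 lower, both highest without CKO replicate 2; leaving out CKO replicate 3 gave 835 higher and 1166 lower, and leaving out a WT replicate gave 449 to 483 higher and 790 to 829 lower. Same-numbered libraries did not deviate together (correlations -0.223, -0.231 and -0.0797). No pairing by number was seen, but so few libraries, with CKO replicate 2 standing apart, cannot exclude one. With DESeq2, which called 2125 genes higher and 2320 lower, 2 PMP22/EMP relatives were lower and 4 MARVEL relatives higher. In that fit all 7 erythroid markers were higher (4 with edgeR). Without CKO replicate 2, chosen after seeing the data, 2 PMP22/EMP relatives were higher and 2 lower, 8 lineage markers were lower, and 0 of 7 erythroid markers were called by edgeR (6 at an unadjusted p below 0.05).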
